A study of Drosophila melanogaster with 12 samples.

Results

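The Ago3-bound and Aub-bound piRNAs of w1118 ovaries were compared by the strand of the transposon they come from. A w1118 fly carries a mutation in the white gene and has normal Ago3 and Aub, and served as the wild type. Ovaries of yeast-fed flies aged 2 to 5 d were lysed, and Ago3 and Aub were each immunopurified with antibodies of the Siomi laboratory. The RNA was sequenced with an adaptor without barcode in both cases. These are 2 of the 12 libraries of the series, 1 for each protein, so that no difference below has a replicate check and no p-value was computed. Of the 126 transposons in the files, 121 had at least 50 read copies in each library and make up the comparison. The other Ago3 and Aub libraries cited are the pair of csulRM50, a mutant of the gene for the arginine methyltransferase PRMT5 (same antibodies), the pairs of aubRK and aubWT, and Ago3 of y w, another control strain. A pair of aubRK libraries of Piwi, another PIWI protein, is also cited. In aubRK and aubWT the endogenous aub is replaced by an HA-tagged transgene driven in the germline by nos-Gal4, either with arginines changed to lysines or wild type. The Ago3 and Aub libraries of aubRK and aubWT, and Ago3 of y w, were made with antibodies of the Mourelatos laboratory. The study's methods also cite a different library protocol for aubRK, aubWT, and y w than for w1118 and csulRM50.

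piRNAs are small RNAs that guide PIWI clade proteins to transposon transcripts. In the germline, Aub and Ago3 amplify them in the ping-pong cycle, in which a transcript cut by the piRNA of one protein yields a piRNA for the other, on the opposite strand. Aub is known for antisense piRNAs, which are complementary to transposon mRNAs, and Ago3 for sense piRNAs, which are complementary to antisense transcripts of piRNA clusters. A strand difference between the proteins is called the ping-pong asymmetry here when the sense share of a transposon was at least 10 percentage points higher in Ago3, and reversed when it was at least 10 points lower.

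The Ago3 library held 9086040 read copies on transposons, and the Aub library 8892024. The sense share was 41.9% in Ago3 and 21.6% in Aub. The difference was 20.3 points, with a counting interval of 20.25 to 20.33 points. Intervals are 95% Wilson intervals, or Newcombe intervals for differences, and address counting error only. They treat read copies as independent molecules, which copies without molecular barcodes are not, so that they can be too narrow even for counting error. A change of strand within transposons accounted for 18.7 of these points, and a change in the makeup of the libraries for 1.63 points. In these libraries of w1118, Ago3 thus had a larger sense share than Aub but was still mostly antisense. The pooled sense share of Ago3 was 48.1% in y w, 47.0% in csulRM50, 31.1% in aubRK, and 56.2% in aubWT. The purity of the immunopurified proteins was not tested.

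The sense share was at least 10 points higher in Ago3 for 88 of the 121 transposons (72.7%) and at least 10 points lower for 7 (5.79%). Between the limits lay 26, of which 19 were higher and 7 lower in Ago3. With no minimum size, 107 (88.4%) were higher in Ago3. The counting interval of the difference lay above 0 for 102 transposons, below 0 for 10, and held 0 for 9. The median difference was 22.1 points (interquartile range 8.44 to 30.01), and 31 transposons differed by at least 30 points. The median sense share was 46.9% in Ago3 and 18.7% in Aub. Shares from 40 to 60% were found for 54 transposons in Ago3 and for 15 in Aub, and shares under 20% for 7 in Ago3 and 65 in Aub. The main strand was antisense for 103 of the 121 transposons in Aub and sense for 49 in Ago3, where shares ran from 9.29 to 80.3%.

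**Figure D1:**
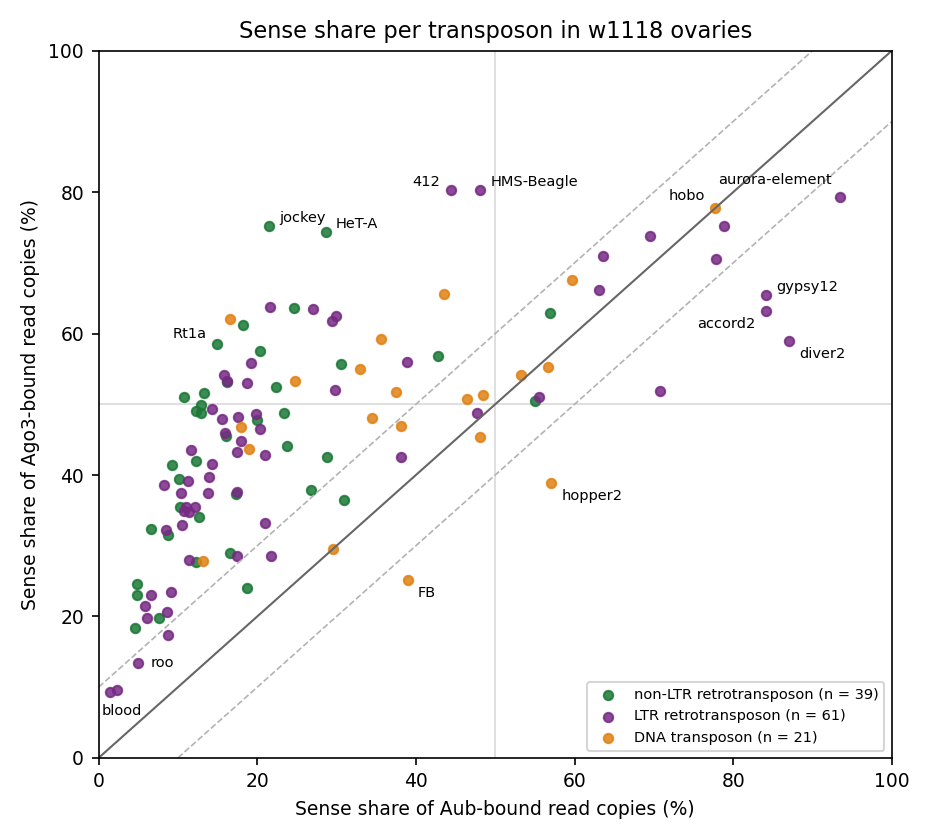
Sense share (%) of each of the 121 transposons in the Ago3 library (vertical) against the Aub library (horizontal), 1 point per transposon, coloured by order. The solid line marks equal shares and the dashed lines a difference of 10 points: 88 points lie on or above the upper dashed line and 7 on or below the lower.

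The only pair of libraries of 1 condition in the series is the Piwi pair of aubRK, whose adaptors differ. Over 118 transposons their sense shares differed by a median of 2.44 points in either direction, and 17 of 118 differed by at least 10 points. Where both had at least 500 copies, this was 7 of 97. Between Ago3 and Aub of w1118 the median size was 22.2 points, and 95 of 121 differed by at least 10 points, or 93 of 111 with at least 500 copies. The spread between 2 libraries of Ago3 or of Aub in w1118 was not measured.

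The transposon with the largest asymmetry was jockey (FBgn0001283), a non-LTR retrotransposon. Its sense share was 75.2% of 83423 copies in Ago3 and 21.5% of 37595 copies in Aub, a difference of 53.7 points. Its sense piRNAs made up 6907 CPM in Ago3 and 908 CPM in Aub, scaled by the library total on transposons, which is 7.60-fold. Its antisense piRNAs were at 2274 CPM in Ago3 and 3320 CPM in Aub, or 0.685-fold. The main strand of jockey was therefore sense in Ago3 and antisense in Aub.

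The telomeric elements HeT-A, TAHRE, and TART are non-LTR retrotransposons that maintain the chromosome ends of Drosophila. All 5 listed showed the asymmetry, against 72.7% of all, by 29.3 to 45.7 points. HeT-A (FBgn0004141) was 74.3% sense in Ago3 and 28.6% in Aub. TAHRE (FBgn0069343) was 63.6% sense in Ago3 and 24.6% in Aub. TART-C was 57.5% sense in Ago3 and 20.4% in Aub, TART-B 53.2% in Ago3 and 16.2% in Aub, and TART-A 39.5% in Ago3 and 10.2% in Aub. The files give the 3 TART elements the same identifier (FBgn0004904) and their consensus sequences can share reads, which the counting may assign to more than 1 of them. Together the telomeric elements held 9.01% of the Ago3 copies and 6.10% of the Aub copies.

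The non-LTR retrotransposons as a whole mostly moved the same way. Of all 39 in this order, with jockey and the telomeric elements included, 35 were at least 10 points higher in Ago3 and 0 at least 10 points lower. The 35 are 89.7%, against 72.7% of all transposons, and the median difference was 25.3 points against 22.1. In the jockey clade, LINE-like elements that include F-element, Doc, and the G elements, 21 of 22 showed the asymmetry (95.5%, against 72.7% of all). G-element (FBgn0001100) was 51.1% sense in Ago3 and 10.8% in Aub. G5 (FBgn0063504) was 51.5% sense in Ago3 and 13.3% in Aub. The exception was G7, with 50.5% of 111 copies in Ago3 and 55.0% of 151 copies in Aub, and its counting interval held 0 (-16.5 to 7.60 points).

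The 3 Rt1 elements also showed it. Rt1a (FBgn0041728) was 58.5% sense in Ago3 and 14.95% in Aub. Rt1b was 49.0% sense in Ago3 and 12.3% in Aub, and Rt1c 42.6% in Ago3 and 28.8% in Aub. The elements that insert into rDNA were less alike. R2-element was 49.9% sense in Ago3 and 12.9% in Aub, and R1-2 56.9% in Ago3 and 42.8% in Aub. The abundant R1A1-element was 62.9% sense in Ago3 and 56.9% in Aub, a difference of 6.005 points, and was mostly sense in both.

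**Figure D2:**
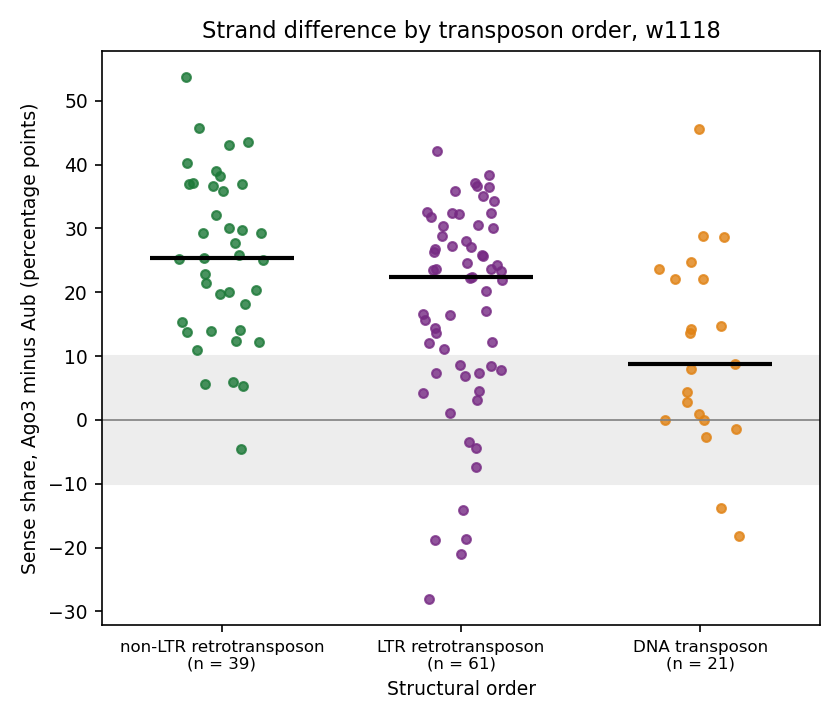
Difference in sense share (Ago3 minus Aub, percentage points) of each transposon, by structural order. Points are transposons with random horizontal spread, bars are medians (25.3, 22.5, and 8.79 points), and the grey band marks differences under 10 points. All but 4 of the 39 non-LTR elements lie above the band.

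Among the LTR retrotransposons, 43 of 61 showed the asymmetry (70.5%, close to the 72.7% of all transposons) and 5 were reversed, with a median difference of 22.5 points against 22.1 for all. In the gypsy group, the largest, 39 of 50 showed it (78.0%) and 2 were reversed. rover (FBgn0061485) was 63.7% sense in Ago3 and 21.6% in Aub. Burdock (FBgn0010302) was 54.2% sense in Ago3 and 15.8% in Aub. 412 had 80.3% sense copies in Ago3 and 44.4% in Aub, and HMS-Beagle 80.3% in Ago3 and 48.1% in Aub. Both were thus among the most sense-biased elements in Ago3 and near equal strands in Aub. At the other end, blood was 9.29% sense in Ago3 and 1.47% in Aub, and 297 was 9.56% in Ago3 and 2.26% in Aub. These 2 fell short of the 10-point limit, and their sense piRNAs were 4.83-fold (blood) and 3.44-fold (297) more abundant in Ago3.

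Of the 3 orders, the DNA transposons showed the asymmetry least often, in 10 of 21, against 72.7% of all, and 2 were reversed. Their median difference was 8.79 points, and their pooled sense share 51.3% in Ago3 and 42.9% in Aub. transib3 (FBgn0063370) had 62.0% sense copies in Ago3 and 16.5% in Aub, at 1822 copies in Ago3 and 1291 in Aub. hobo, a DNA transposon that causes hybrid dysgenesis, was 77.7% sense in Ago3 and in Aub, with a difference of 0.01 points (-0.78 to 0.79). hopper was 29.6% sense in both, with a difference of -0.01 points (-1.23 to 1.22). The strands of both elements had the same ratio in Ago3 as in Aub within counting error.

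The I-element (FBgn0001249), the non-LTR retrotransposon behind I-R hybrid dysgenesis, was 61.2% sense in Ago3 and 18.1% in Aub. P-element had 0 copies in Ago3 and 2 in Aub and was below the minimum. The 4 other elements below it were BS4 (18 copies in Ago3, 17 in Aub), Bari2 (29 in Ago3, 33 in Aub), Helitron (2 in Ago3, 5 in Aub), and Penelope (0 in both). A count of 0 allows a share of up to 3.30e-05% in Ago3 and 3.37e-05% in Aub. The member nearest above the minimum was G7.

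**Figure D3:**
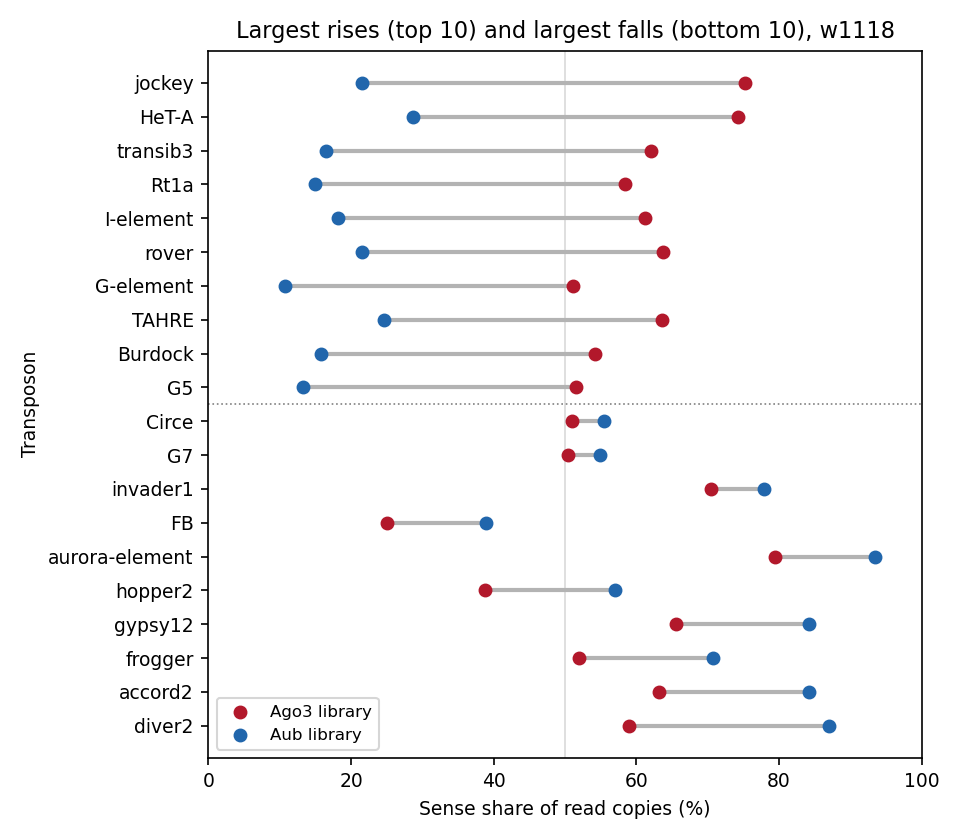
Sense share (%) of the 10 transposons with the largest rise (above the dotted line) and the 10 with the largest fall (below it), in the Ago3 library (red) and the Aub library (blue). Each row joins the 2 values of 1 transposon. In the upper rows Aub lies between 10.8 and 28.6% and Ago3 above 50%, whereas in the lower rows Aub lies above 50% except for FB.

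The 7 reversed transposons were diver2, accord2, frogger, gypsy12, hopper2, aurora-element, and FB. Sense and antisense are as deposited, relative to each consensus sequence, whose orientation was not checked. diver2 (FBgn0063439), an LTR retrotransposon of the BEL group, had 58.9% sense copies of 84208 in Ago3 and 87.0% of 77158 in Aub, a difference of -28.0 points. accord2 (FBgn0063782), of the gypsy group, was 63.2% sense in Ago3 and 84.2% in Aub. gypsy12 (FBgn0067385), also of the gypsy group, was 65.5% sense in Ago3 and 84.2% in Aub. The files list gypsy12 and invader6 under the same identifier. aurora-element (FBgn0010103), of the BEL group, was 79.4% sense in Ago3 and 93.5% in Aub, the highest sense share in Aub of all. In these 4, Aub held mostly sense piRNAs, and Ago3 held more antisense piRNAs than Aub.

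The other 3 were less abundant. hopper2 (FBgn0067381), a DNA transposon, was 38.8% sense in Ago3 and 57.0% in Aub, and was the only one of the 121 that was mostly antisense in Ago3 and mostly sense in Aub. frogger (FBgn0061513), of the copia group, had 51.9% sense copies of 337 in Ago3 and 70.8% of 356 in Aub, with a counting interval of -25.8 to -11.6 points. FB (FBgn0000638), the foldback DNA element, had 25.1% sense copies of 1355 in Ago3 and 39.0% of 1499 in Aub. It was the only reversed transposon whose Aub piRNAs were mostly antisense. The reversed transposons held 3.37% of the Ago3 copies and 3.68% of the Aub copies.

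Some elements with similar names went opposite ways, and others the same way. diver was 53.3% sense in Ago3 and 16.2% in Aub, a difference of 37.2 points against -28.0 for diver2. accord was 35.5% sense in Ago3 and 10.99% in Aub, a difference of 24.6 points against -21.0 for accord2. In contrast, HMS-Beagle (32.3 points) and HMS-Beagle2 (34.2) moved the same way, likewise jockey (53.7) and jockey2 (12.2), as did 10 of the 12 numbered gypsy elements, which were at least 10 points higher in Ago3. These pairs were singled out after their values were seen. diver and diver2 also went opposite ways in csulRM50 (26.8 and -26.2 points), but not in aubWT (-13.1 and -32.6) or aubRK (-15.7 and -10.5). accord and accord2 did so in csulRM50 (29.9 and -21.1 points) and aubWT (36.7 and -8.13), but not in aubRK (-0.25 and -6.14). Just inside the limits were G3 (11.01 points) and FB (-13.9 points), and just outside them HB (8.79 points) and invader1 (-7.37 points).

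The direction was then set against the strand that Aub favoured. Aub was mostly antisense for 103 transposons, and the antisense share was lower in Ago3 for 100 of them, with medians of 56.3% in Ago3 and 82.7% in Aub. Aub was mostly sense for 18, and the sense share was lower in Ago3 for 11 of them. Counted together, the share of the strand dominant in Aub was lower in Ago3 for 111 of 121 transposons (91.7%). The 10 exceptions were INE-1, copia, R1A1-element, invader4, 1731, S2, and hobo, mostly sense in Aub, and hopper, transib4, and FB, mostly antisense. Where at least 75% of the Aub copies were antisense, Ago3 was less antisense in 77 of 77, and where at least 75% were sense, it was less sense in 6 of 7, with hobo left over. Choosing the strand by 1 of the 2 libraries favours a lower share in the other. In the Piwi pair of aubRK the same count was 83 of 118 with the strand chosen from the one library and 51 of 118 with it chosen from the other.

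By the sense share in Aub, the median difference was 14.998 points for the 18 transposons under 10%, 28.0 points for the 47 from 10 to 20%, and 22.1 points for the 30 from 20 to 40%. It was 2.84 points for the 15 from 40 to 60% and -7.37 points for the 11 above. The Aub share that sets these ranges is also subtracted in the difference. Low ranges therefore lean to rises and high ranges to falls by construction, and the size of this part was not tested. The main strand was sense in Ago3 and antisense in Aub for 32 transposons, antisense in both for 71, and sense in both for 17. Across the 121 transposons the shares in Ago3 and Aub had a Spearman correlation of 0.73, as a description, since every point rests on the same 2 libraries.

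The abundance of each strand was compared next. The strand dominant in Aub was at a median of 0.707-fold in Ago3 relative to Aub (interquartile range 0.678 to 0.757), and was less abundant in Ago3 for 116 of 121 transposons. The other strand was at a median of 2.497-fold (1.48 to 3.60). On the log2(CPM + 1) scale the interquartile range was 0.16 for the dominant and 1.28 for the other strand. A shift of strand at equal abundance changes the log ratio of the smaller strand more than that of the larger, and the smaller strand is the other strand in Aub by choice, so that unequal spreads are in part given by the construction. Where Aub was mostly antisense, the median was 0.705-fold for the dominant strand (interquartile range of the log2 ratio 0.15) and 2.81-fold for the other (0.97). Where Aub was mostly sense, it was 0.740-fold for the dominant strand (0.43) and 0.951-fold for the other (0.96), and the other strand was lower in Ago3 for 11 of these 18. diver2 had the highest ratio of the other strand among these 18. For diver2, the sense strand was at 5463 CPM in Ago3 and 7548 CPM in Aub (0.724-fold), and the antisense strand at 3805 CPM in Ago3 and 1129 CPM in Aub (3.37-fold). For HeT-A, the sense strand was at 25021 CPM in Ago3 and 4740 CPM in Aub (5.28-fold), and the antisense strand at 8652 CPM in Ago3 and 11822 CPM in Aub (0.732-fold). CPM values are relative to each library, so that the amounts of Ago3 and Aub piRNAs in the ovary cannot be compared from them.

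**Figure D4:**
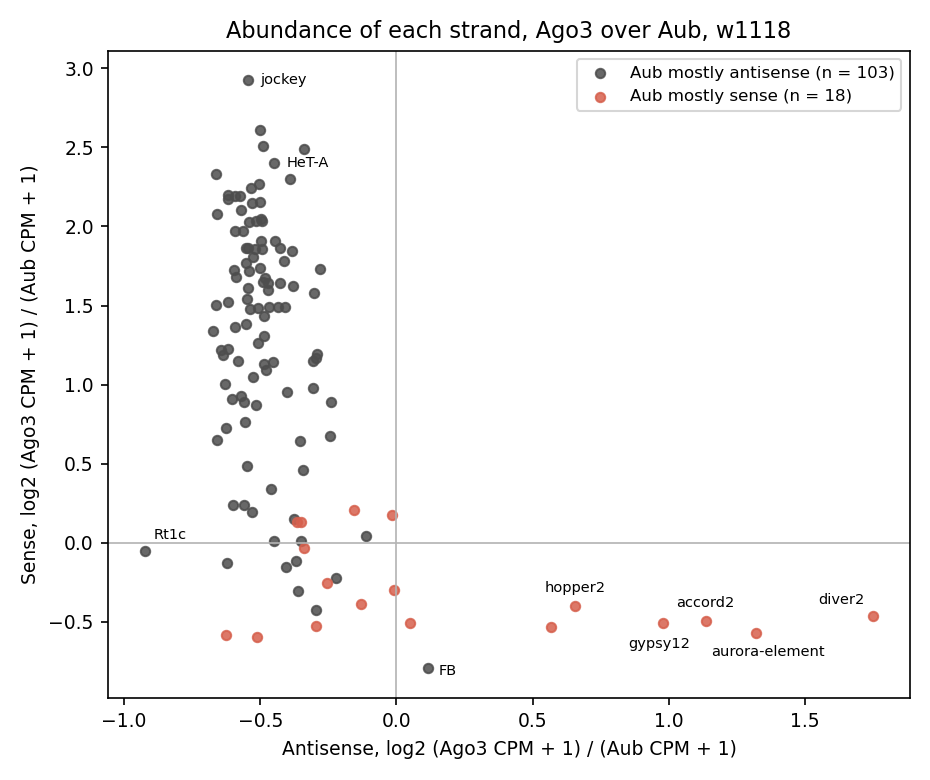
Log2 ratio of Ago3 to Aub for sense (vertical) and antisense (horizontal) piRNAs of each transposon, from CPM plus 1. Transposons mostly antisense in Aub (103, grey) form a narrow column left of 0 with widely spread sense ratios, and those mostly sense in Aub (18, red) include a row below 0 that runs to diver2.

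Sense piRNAs were over 2-fold more abundant in Ago3 for 73 transposons (60.3%) and over 2-fold less abundant for 0. Antisense piRNAs were over 2-fold more abundant in Ago3 for 3 (2.48%), namely diver2, aurora-element, and accord2, and over 2-fold less abundant for 0. Sense was higher and antisense lower in Ago3 for 99 transposons, the opposite held for 8, both strands were lower for 14, and both were higher for 0.

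The number of read copies per entry, where identical reads count once, differed between the strands in the same way. The ratio of Ago3 to Aub had a median of 0.977 for the strand dominant in Aub and was from 0.9 to 1.1 for 108 of 121 transposons. For the other strand it had a median of 1.93 and was over 1.5 for 86. jockey had 11.5 copies per sense entry and 5.41 per antisense entry in Ago3, and 2.59 per sense entry and 5.61 per antisense entry in Aub. diver2 had 5.57 per sense entry and 5.57 per antisense entry in Ago3, and 5.52 per sense entry and 2.17 per antisense entry in Aub. Counted by entries, all 95 transposons past the limits kept their direction, but 94 had a smaller difference. The pooled sense share was then 44.0% in Ago3 and 33.5% in Aub, 75 transposons were at least 10 points higher in Ago3, and diver2, accord2, and frogger were at least 10 points lower. Sense piRNAs were over 2-fold more abundant in Ago3 for only 4 transposons by entries. The part of repeated reads in the asymmetry was not tested beyond this.

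Summed over strands, the abundance of the transposons was nearly the same in both libraries (Spearman correlation 0.989 across transposons). It was over 2-fold higher in Ago3 for 3 of 121 (2.48%) and over 2-fold lower for 0. jockey was at 9181 CPM in Ago3 and 4228 CPM in Aub (2.17-fold), 412 at 8594 CPM in Ago3 and 4147 CPM in Aub (2.07-fold), and HeT-A at 33672 CPM in Ago3 and 16562 CPM in Aub (2.03-fold). HMS-Beagle (1.88-fold) and I-element (1.67-fold) came next. All 5 were at least 30 points more sense in Ago3. The lowest ratios were those of S2 (0.643-fold), Rt1c (0.652-fold), mariner2 (0.645-fold), G7 (0.719-fold), and HB (0.737-fold), and S2, mariner2, G7, and HB had under 400 copies in each library. By entries, no transposon was over 2-fold.

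The 5 most abundant transposons held 27.7% of the Ago3 copies and 29.5% of the Aub copies. F-element was 23.0% sense in Ago3 and 4.79% in Aub. Max-element, of the BEL group, was 17.4% sense in Ago3 and 8.79% in Aub, and roo, also of the BEL group, 13.4% in Ago3 and 4.92% in Aub. With Rt1b and R1A1-element, the 5 were all higher in Ago3, but Max-element, roo, and R1A1-element did not reach 10 points. Rt1b (1.95 points), F-element (1.35), Rt1a (1.22), HeT-A (1.15), and Doc (0.882) had the largest strand-change parts of the pooled difference. With their change in abundance included, the largest contributions were those of Rt1b (2.23 points), HeT-A (2.03), Rt1a (1.60), F-element (1.18), and TAHRE (0.838).

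Elements of the somatic follicle cells, where Ago3 and Aub are not known to act, made up little of either library. The 6 transposons that the files class as soma dominant are gypsy, ZAM, gtwin, Tabor, gypsy5, and gypsy10. They held 0.26% of the Ago3 copies and 0.23% of the Aub copies, and their median difference was 25.3 points. The 19 classed as germline dominant held 44.4% of Ago3 and 44.8% of Aub. The follicle cell elements named next hold Idefix, classed as intermediate, in place of gypsy10. All of gypsy, ZAM, Idefix, gtwin, Tabor, and gypsy5, which are known from follicle cells, showed the asymmetry, against 72.7% of all transposons, by 22.0 to 31.8 points, and their median of 26.95 points stands beside 22.1 for all. gypsy was 44.8% sense in Ago3 and 17.98% in Aub, and ZAM 34.8% in Ago3 and 11.4% in Aub. The asymmetry was shown by 13 of 19 germline-dominant transposons (68.4%) and 9 of 10 intermediate ones (90%), against 72.7% of all. The 7 reversed transposons were without a class, as were 86 of the 121. In csulRM50 all of the follicle cell elements were also higher in Ago3, by 2.74 (gypsy5) to 27.9 points (Idefix). In aubWT, Idefix (13.5 points) and ZAM (4.50) were higher in Ago3. There gypsy (-7.76 points), gtwin (-6.53), gypsy5 (-4.84), and Tabor (-1.07) were lower. In aubRK all of them were lower in Ago3, from -1.15 (Tabor) to -13.9 points (Idefix).

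In csulRM50 ovaries, whose libraries were made with the same antibodies, the pooled sense share was 47.0% in Ago3 and 31.5% in Aub, a difference of 15.5 points. It was at least 10 points higher in Ago3 for 68 of 121 transposons (56.2%) and at least 10 points lower for 7 (5.79%). Of the 88 with the asymmetry in w1118, 85 were higher in Ago3 of csulRM50 and 66 by at least 10 points. The 7 reversed ones were all lower there, by 4.96 to 26.2 points, and 5 by at least 10 points. diver2 was 54.6% sense in Ago3 of csulRM50 and 80.9% in Aub of csulRM50. The differences of w1118 and csulRM50 had a Spearman correlation of 0.733 over 121 transposons. hobo, equal in w1118, was 73.2% sense in Ago3 of csulRM50 and 40.6% in Aub of csulRM50. The strand dominant in Aub was at a median of 0.733-fold in Ago3 of csulRM50 relative to Aub of csulRM50, and the other strand at 1.59-fold. The share of the dominant strand was lower in Ago3 for 107 of 121 transposons (88.4%).

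**Figure D5:**
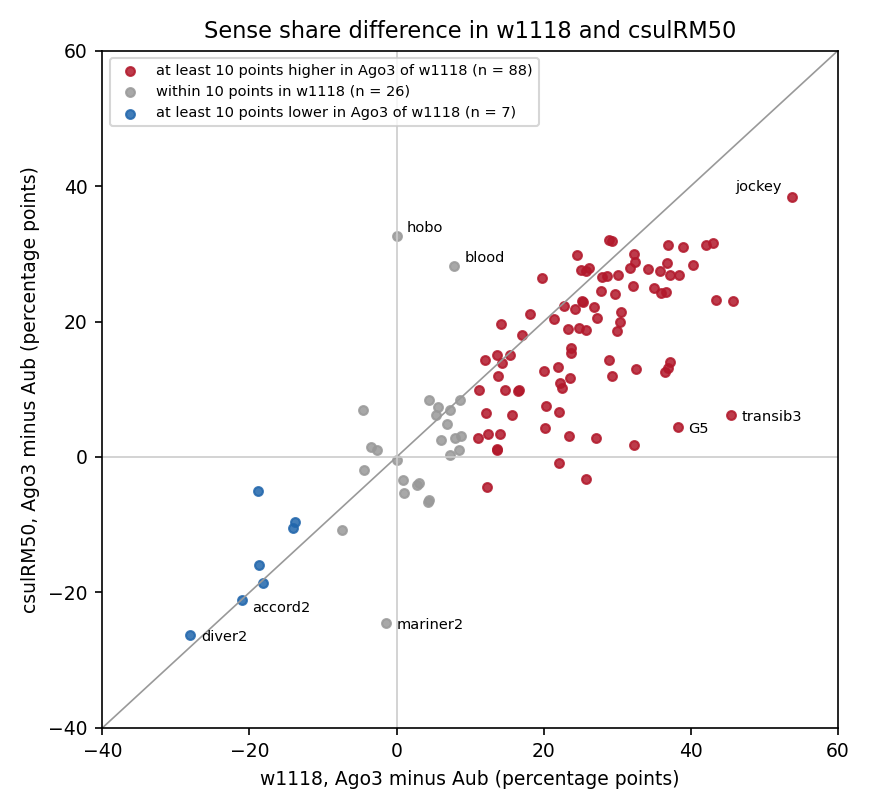
Difference in sense share (Ago3 minus Aub, percentage points) in w1118 (horizontal) and csulRM50 (vertical) for 121 transposons, coloured by their size in w1118. The line marks equal differences. All 7 blue points (reversed in w1118) lie below 0 in csulRM50, and 85 of the 88 red points lie above 0.

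In the pairs made with the other antibodies the transposons were ordered differently. In aubWT the pooled sense share was 56.2% in Ago3 and 29.8% in Aub, with 55 of 123 transposons at least 10 points higher in Ago3 (44.7%) and 18 at least 10 points lower (14.6%). The 7 transposons reversed in w1118 were also lower in Ago3 of aubWT, 5 of them by at least 10 points. Of the 88 with the asymmetry in w1118, 62 were higher in Ago3 of aubWT, and 9 were at least 10 points lower. In aubRK the pooled share was 31.1% in Ago3 and 36.5% in Aub, with 11 of 123 at least 10 points higher (8.94%) and 38 at least 10 points lower (30.9%). Of the same 88, 27 were higher in Ago3 of aubRK, and 29 were at least 10 points lower. Of the 7 reversed in w1118, 5 were lower there, 3 of them by at least 10 points. Counted by the strand dominant in Aub, its share was lower in Ago3 for 97 of 123 transposons in aubWT (78.9%) and for 70 of 123 in aubRK (56.9%). The dominant strand was at a median of 0.655-fold in Ago3 relative to Aub in aubWT and 1.08-fold in aubRK, with interquartile ranges of the log2 ratio of 1.02 in aubWT and 1.11 in aubRK, against 0.16 in w1118. The correlation of the w1118 differences with those of aubWT was 0.246 and with those of aubRK -0.07 (Spearman, 121 transposons each). Genotype, antibody, and cited library protocol differ from w1118 together, as does, for aubWT, a barcode used for Ago3 only. These cannot be told apart. Read copies per entry were 7.37 in Ago3 and 6.52 in Aub of w1118, but 6.15 in Ago3 and 28.0 in Aub of aubRK, and 39.1 in Aub of aubWT, and the part of this in the order of the transposons was not tested.

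The Ago3 library of y w gives a second control. The sense shares of Ago3 in w1118 and Ago3 in y w had a Spearman correlation of 0.216 over 121 transposons, with a median difference of 12.6 points in either direction, and 52 were within 10 points. The 88 transposons with the asymmetry had a median sense share of 50.7% in Ago3 of y w (5.64 to 79.7%), and the 7 reversed ones 48.5% (40.3 to 55.2%). The shares in Ago3 of y w and Aub of w1118 had a Spearman correlation of 0.03. HeT-A was 79.7% and jockey 71.6% sense in Ago3 of y w, close to their 74.3% and 75.2% in Ago3 of w1118. 412, however, was 28.9% sense in Ago3 of y w against 80.3% in w1118. The median of the soma-dominant transposons was 9.415% in Ago3 of y w against 40.2% in Ago3 of w1118. Strain, antibody, adaptor, and cited library protocol differ between these 2 libraries, and their parts were not tested.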

How the data were processed

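Small RNAs bound to PIWI clade proteins had been sequenced. Per the submitters' processing notes the authors used Cutadapt 2.3 and STAR 2.4.2a, with dm3 as the genome build, and per the study's methods aligned reads to consensus transposon sequences. The deposited values are whole-number counts, not normalized, of sense and antisense reads on each transposon. There are 2 kinds, read copies and entries (identical reads merged), a meaning taken from the column names and values. Transposons are families of many copies, so that no genome position is given. Consensus sequences were not used here, so that the orientation behind sense and antisense was not checked.

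Sense shares, CPM by the library total on transposons, and log2(CPM + 1) were computed in Python 3.11.15 (pandas 2.3.3). A minimum of 50 read copies in both libraries, a limit of 10 points, and a limit of 2-fold were used in place of a test, because each group had 1 library. Points of a pooled difference were split into strand change at mean abundance and abundance change at mean sense share. Elements were assigned to orders and families by name. The members, lists, and limits were chosen with earlier results of these data known. Named by rule were the 10 largest rises and falls in sense share, the 5 most abundant, the 5 largest rises and falls in abundance, the neighbours of the limits, and the follicle cell, telomeric, and hybrid dysgenesis elements. Other elements (412 and HMS-Beagle in the text on shares, blood, 297, hopper, diver, accord, HMS-Beagle2, jockey2, R2-element, R1-2, and those in counts) were named after their values were seen. Alternatives were entries, other minimums and limits, TMM (edgeR 4.0.16) and DESeq2 1.42.0 size factors in R 4.3.3, a pseudocount of 10, and leaving out single transposons. In simulated counts of 121 transposons, 20 of 20 planted rises of 30 points in sense share were recovered, with 0 other calls. So were 20 of 20 falls of 25 points. These sizes lie far past the 10-point limit, and starting shares were held nearer to equal strands than many in Aub. Recovery was thus nearly fixed in advance, and it checks the computation but not the calls. The simulation held counting error alone.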

Additional observations from a re-analysis of the deposited data

Results flagged for a closer look

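Some results of w1118 took the opposite direction in other Ago3 and Aub pairs by at least 10 points, or, for the pooled share, by more than its counting interval. Each rests on 1 library per protein and genotype, and the difference between genotypes was not tested. Screened were the pooled share and the transposons named by the rules on sense share, abundance, and limits, so that the list is not complete. Of all 88 with the asymmetry in w1118, 9 were at least 10 points lower in Ago3 of aubWT and 29 in Ago3 of aubRK. In aubWT the sense share (Ago3 minus Aub) was -13.4 points for rover, -13.1 for Burdock, -11.6 for HMS-Beagle, -11.5 for Rt1c, and -19.2 for G3, all of which were more sense in Ago3 of w1118. In aubRK the pooled difference was -5.41 points, and single differences were -17.0 points for transib3, -20.7 for rover, -10.6 for Burdock, -29.3 for 412, -21.0 for HMS-Beagle, and -14.6 for Rt1c. Of the follicle cell elements, Idefix (-13.9 points), ZAM (-10.1), and gtwin (-10.1) were also less sense in Ago3 than in Aub of aubRK. frogger, reversed in w1118, was 17.1 points more sense in Ago3 of aubRK. Both pairs differ from w1118 in antibody and cited library protocol as well as genotype, and these cannot be told apart.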

How the results depend on the processing

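The pooled difference of 20.3 points was 10.5 points by entries, 22.1 as the median over transposons, 20.6 without roo, 19.4 without Rt1b, and 19.7 without TART-A, TART-B, and TART-C. The count of 7 transposons lower in Ago3 was 2 with a limit of 20 points and 3 by entries. The count over 2-fold in abundance was 0 by entries, and that over 2-fold in sense CPM was 4 by entries (against 73), an alternative chosen after seeing the data. Of 32 transposons named by the rules on sense share, abundance, and limits, 31 kept their sign by entries. The other, S2 (0.90 points by copies, -0.21 by entries), stayed within counting error of 0. The TART elements, the follicle cell elements, and hobo were not among these 32. The cause of the smaller differences by entries was not tested. TMM and DESeq2 factors moved the median log2 ratio by 0.03 (TMM) and 0.04 (DESeq2). No paired analysis was possible because each group had 1 library. Depth limits the rarest transposons, and 111 of the 121 had at least 500 copies in both libraries.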
